A study of Rattus norvegicus with 8 samples.

Results

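The genes described here encode the NF-kB transcription factors, the proteins that hold these factors back, the Toll-like receptors and kinases that switch them on, and the cytokines, chemokines, adhesion molecules and enzymes whose transcription they drive. The list holds 40 genes, chosen by pathway and not by a measured value, though with earlier results of these data known. Of these, 35 had a probe set whose single symbol in the platform annotation was the gene's own, out of 14217 genes with such a probe set on the array. Rel, Nfkbie, Tlr5, Nod2 and Ikbkg had none and are not analysed here. For genes with more than 1 probe set, the one with the highest mean over all 8 arrays stood for it. Of the 35 measured genes, 27 were bright enough to be tested and 8 were not.

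Rats ate either a breeder diet with 10 g of quercetin added per kg, the quercetin group, or that breeder diet alone, the control group, for 11 weeks. Quercetin is a flavonol found in onions and many other plants. Total RNA of distal colon mucosa, scraped off with glass slides, was hybridised to Affymetrix rat arrays, 4 for the quercetin group and 4 for the control group. The sources used here do not give the strain, sex or age of the rats. The labels number the samples but do not name the animals behind them, and p-values therefore reflect only sample-to-sample spread, which may be technical.

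NF-kB is a family of paired proteins that wait in the cytoplasm, bound by IkB proteins. Bacterial products sensed by Toll-like receptors, or cytokines such as TNF and interleukin-1, act through adaptor proteins, kinases and ubiquitin ligases on the IkB kinase complex, which marks IkB for destruction and so frees NF-kB to enter the nucleus. Several inhibitors, among them IkB alpha and A20, are themselves NF-kB target genes and close a feedback loop. In the colon, epithelial cells and the immune cells beneath them both use this pathway where the tissue faces gut bacteria.

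The scrapings carried the RNA of an epithelium. All 15 epithelial markers looked at were bright enough to test, and Epcam, an adhesion protein of epithelial cells, had signals of 14685 to 18771 on the quercetin arrays and 17731 to 21395 on the control arrays. Of 16 macrophage and dendritic cell markers 8 were bright enough, of 8 measured neutrophil markers 2, and of 15 measured T and NK cell markers 6. Control array 2 was unlike the other 7. Its GAPDH 3' to 5' signal ratio, which goes up when RNA is shortened, was 3.79 against 1.58 to 2.36. Its mean correlation with the other arrays was 0.927 against 0.941 to 0.955. The same ratio for beta-actin was 21.4 on control array 2 and 8.65, 10.2 and 12.4 on control arrays 1, 3 and 4. On the quercetin arrays the beta-actin ratio was 6.79 to 9.12.

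No gene of the group passed the test for a difference between the diets. Of the 27 tested, 0 had a limma adjusted p under 0.05 (lowest adjusted p = 0.33, highest 0.99), where 0.0107% of all 18625 tested probe sets did. At an unadjusted p under 0.05 there were 3 genes, Irak1 and Nfkbia with higher signals in the quercetin group and Tnfaip3 with lower ones. That is 11.1% of the 27, beside 10.8% of all tested probe sets (5.04% higher and 5.71% lower), a share near the background. The signals of the diets did not overlap for 2 genes, Irak1 and Tnfaip3, or 7.41% of the 27, against 6.39% of all tested probe sets.

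Small differences in the higher direction were the more common ones. The log2 fold change, quercetin over control on the log2(signal + 16) scale, was above 0 for 21 of the 27 tested genes (77.8%) and for 51.3% of all tested probe sets. Its median was 0.12 for the 27 genes and 0.01 for all tested probe sets. Over the 35 measured genes, whether bright enough or not, 22 were above 0 and the median was 0.09. Control array 2 had the lowest value of the 8 arrays for 9 of the 27 genes (33.3%), against 19.5% of all tested probe sets. These 9 were Relb, Nfkbib, Tlr2, Ripk2, Ikbkb, Chuk, Birc2, Birc3 and Il1a. Without control array 2 the median over the 35 genes was 0.02, and 18 of them were above 0.

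**Figure D1:**
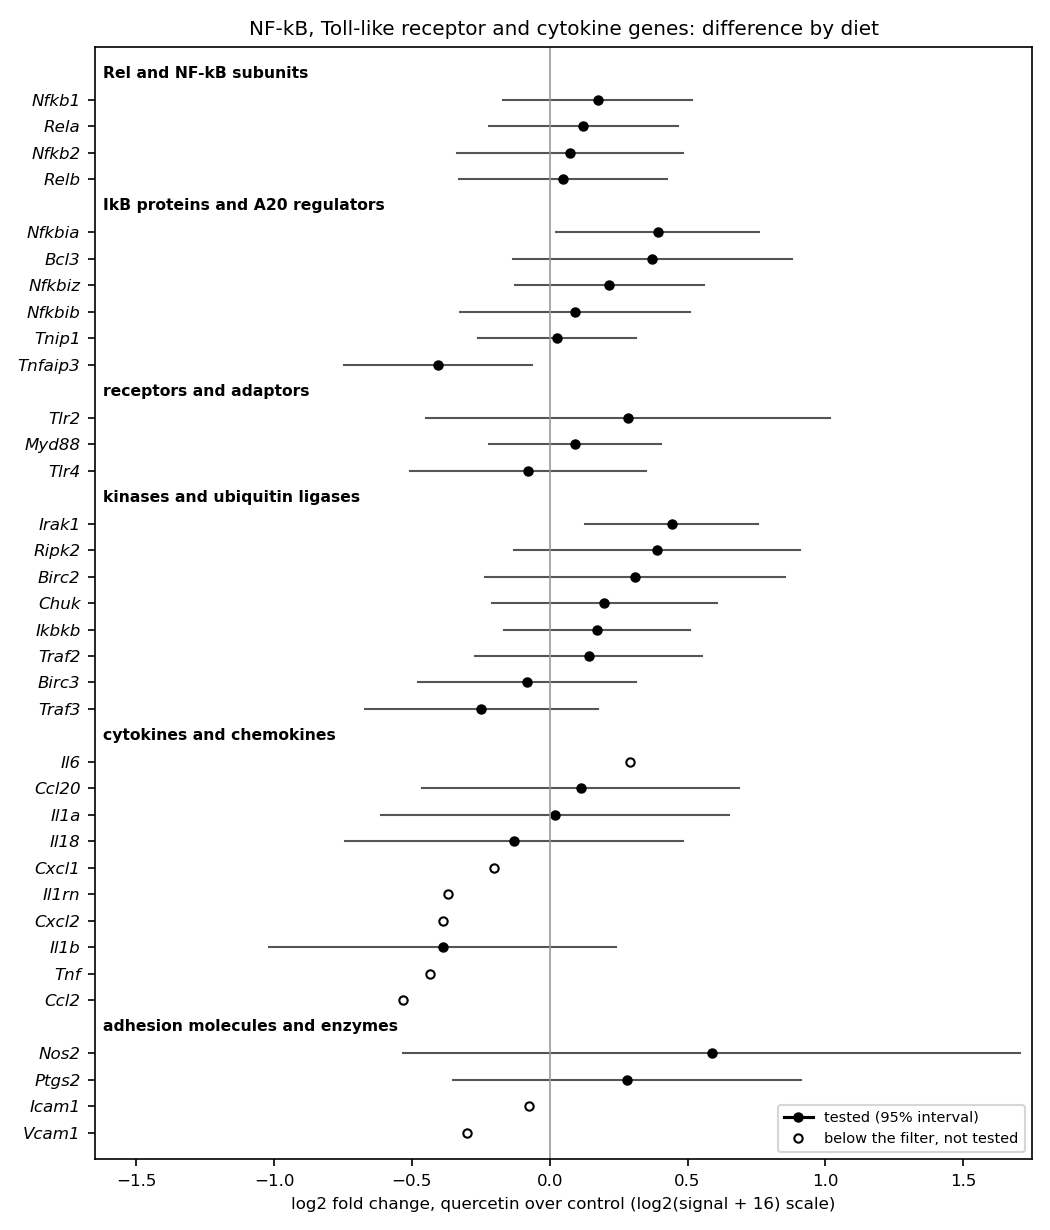
Log2 fold change (quercetin over control, log2(signal + 16) scale) of the 35 measured genes, grouped by role. Filled points with lines are the 27 tested genes with the 95% interval of the limma fit, and open points are the 8 genes below the filter, which were not tested. The intervals of Irak1, Nfkbia and Tnfaip3 leave out 0, and 0 genes passed after adjustment.

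The precision limits what could be seen. The 95% interval of a tested gene reached between 0.29 and 1.12 to either side of its log2 fold change, with a median of 0.41. For 24 of the 27 genes the whole interval lay between -1 and 1, so that a change of that size on the scale of the fit was outside it. The other 3 were Tlr2, Il1b and Nos2. The scale of the fit understates changes of dim genes. For dim genes among the 24, a change of that size in the signal itself may therefore lie within the interval.

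Among the NF-kB subunits, all 4 measured genes had log2 fold changes slightly above 0, and none passed. Nfkb1 encodes p105, the precursor of p50, the partner of RelA in the main form of NF-kB. Its signals were 568, 758, 565 and 682 on the quercetin arrays, against 454, 666, 610 and 547 on the control arrays. The ranges overlapped widely, and quercetin arrays 1 and 3 lay within the control range. This gave a log2 fold change of 0.17 (SE 0.16, limma adjusted p = 0.74).

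Rela, the main activating subunit, averaged 370 ± 53.5 in the quercetin group and 338 ± 43.7 in the control group (SD, n = 4 each), a log2 fold change of 0.12 (95% interval -0.22 to 0.46). The subunits of the slower, alternative pathway were as close. Nfkb2, which encodes p100, averaged 141 ± 19.7 in the quercetin group and 134 ± 26.2 in the control group (SD, n = 4 each), and Relb, its partner, averaged 173 ± 29.6 in the quercetin group and 166 ± 17.3 in the control group (SD, n = 4 each). Relb had a log2 fold change of 0.05 (95% interval -0.33 to 0.42). The small differences of Nfkb2 and Relb turned below 0 in 2 and 4 of the 20 alternative analyses.

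The IkB proteins and the A20 regulators held 2 of the 3 genes with the smallest p, with opposite directions. Tnfaip3 encodes A20, an enzyme that edits ubiquitin chains on signalling proteins and so ends NF-kB activation. Its signals were 221, 231, 224 and 239 on the quercetin arrays, against 389, 313, 266 and 276 on the control arrays. Every quercetin array lay below every control array, and the quercetin arrays were close together, with a mean of 229 ± 7.71 (SD, n = 4) against 311 ± 56.02 (SD, n = 4) in the control group. The log2 fold change was -0.40 (SE 0.16, 95% interval -0.75 to -0.06), 0.756 times the control level, with a limma adjusted p of 0.38. With 1 array left out at a time the log2 fold change ran from -0.47 to -0.30. Without control arrays 1 and 2 together it was -0.23, and over all 20 alternatives the adjusted p ran from 0.25 to 0.79.

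Nfkbia encodes IkB alpha, the inhibitor that is rebuilt after each round of NF-kB activation. Its signals were 537, 690, 528 and 782 on the quercetin arrays, against 481, 549, 376 and 503 on the control arrays. Quercetin arrays 2 and 4 were above all control arrays, while quercetin arrays 1 and 3 lay just below control array 2. Nfkbia had a log2 fold change of 0.39 (SE 0.17, 95% interval 0.02 to 0.76, limma adjusted p = 0.43). It stayed above 0 in all 20 alternatives, at 0.29 to 0.51, with adjusted p-values of 0.27 to 0.69.

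The other members of this set had overlapping groups. Nfkbiz, an atypical IkB protein that works in the nucleus on late target genes, averaged 280 ± 36.0 in the quercetin group and 239 ± 27.5 in the control group (SD, n = 4 each), a log2 fold change of 0.22. Bcl3, another nuclear IkB protein, had a log2 fold change of 0.37 (95% interval -0.13 to 0.88), with control arrays 2 and 4 low at 113 and 94.0 and the other 6 arrays at 167 or more. Nfkbib, which encodes IkB beta, averaged 305 ± 26.7 in the quercetin group and 293 ± 82.5 in the control group (SD, n = 4 each), a log2 fold change of 0.09, or -0.07 without control array 2. Tnip1, which binds A20, averaged 1651 ± 251 in the quercetin group and 1609 ± 82.5 in the control group (SD, n = 4 each). It had a log2 fold change of 0.03 (95% interval -0.26 to 0.31), one of the narrower intervals of the group.

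**Figure D2:**
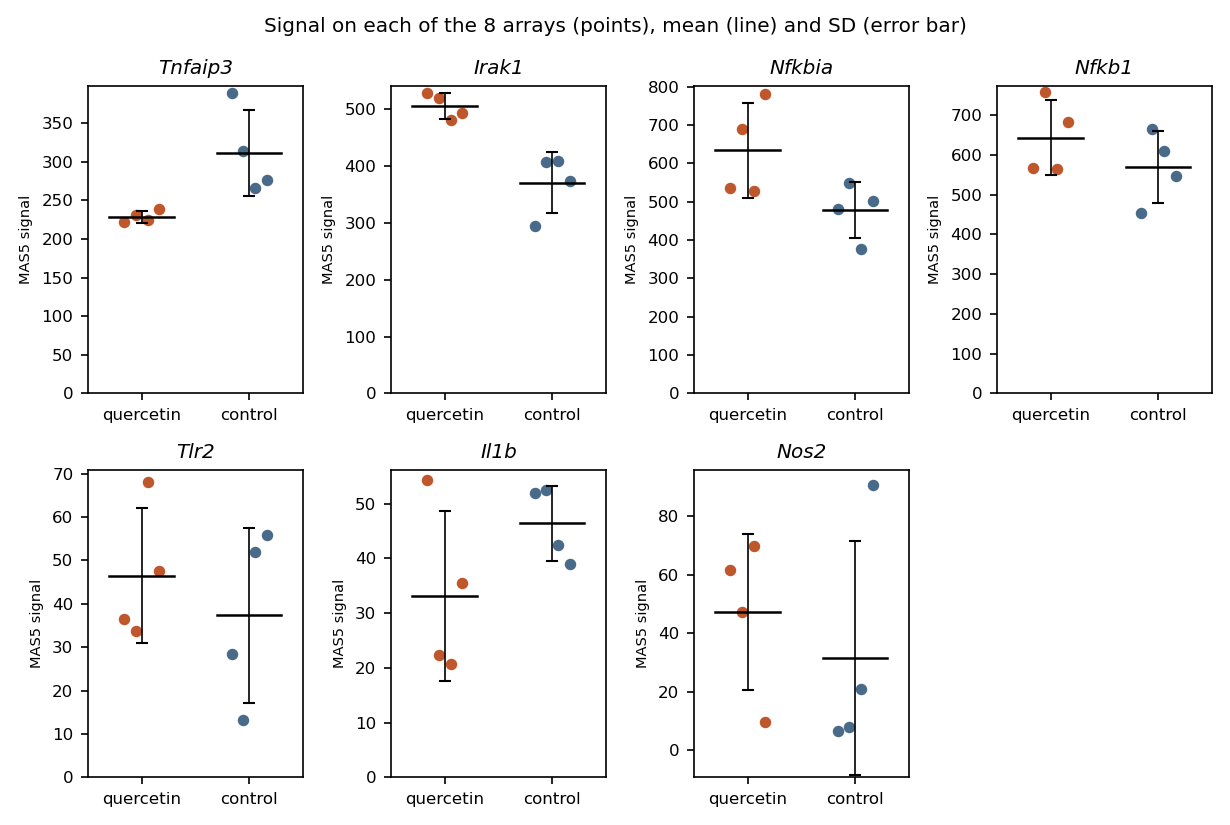
MAS5 signal (linear axis, arbitrary units) of 7 genes on the quercetin arrays (left, orange) and the control arrays (right, blue); points are arrays 1 to 4 from left to right, horizontal lines the mean and error bars the SD. Tnfaip3 and Irak1 show no overlap between the diets, while the other 5 genes overlap.

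Regulatory sequence is shown for the genes of the list because several are classic NF-kB targets, so the letters NF-kB binds can be looked for at their start sites. The search used GGGNNTTTCC, a simplified form of the NF-kB site, on both strands (GGAAANNCCC on the other strand), in windows from 250 bases before to 50 bases after each RefSeq transcription start of the rat assembly GRCr8. A window was found for 29 of the 35 measured genes. Of these, 11 held a match (37.9%), against 1.53% of all 33469 windows. A match is a run of letters and not a shown site of binding. Tnfaip3 and Nfkbia differed in the direction of their signal change, and both windows held a match. Their bases before the start site follow, with matches in capitals. The Tnfaip3 stretch lies at chr1:15543980-15544229 and that of Nfkbia at chr6:78597073-78597322, both on the minus strand.

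Tnfaip3: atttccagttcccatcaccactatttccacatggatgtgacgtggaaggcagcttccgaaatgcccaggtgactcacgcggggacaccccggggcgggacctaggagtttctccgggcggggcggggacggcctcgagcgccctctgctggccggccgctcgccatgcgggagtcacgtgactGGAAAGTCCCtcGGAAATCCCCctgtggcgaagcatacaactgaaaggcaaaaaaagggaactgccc
Nfkbia: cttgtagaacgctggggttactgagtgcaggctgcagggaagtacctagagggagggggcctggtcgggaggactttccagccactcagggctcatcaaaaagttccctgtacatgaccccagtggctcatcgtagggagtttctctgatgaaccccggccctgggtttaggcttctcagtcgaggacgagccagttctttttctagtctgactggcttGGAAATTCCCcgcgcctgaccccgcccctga

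The Tnfaip3 window held 2 matches on the strand opposite the gene, starting 67 and 55 bases before the start site, and Nfkbia held 1 on that strand, 31 bases before it. The matches of 9 further genes, with 10 bases on either side, are printed to show the letters in genes whose signals did and did not reach the level for testing. Cxcl1 and Cxcl2 each held 2 matches, and both are given.

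Nfkb1 (chr2:226805440-226805469, minus strand): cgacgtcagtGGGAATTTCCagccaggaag
Nfkb2 (chr1:255108344-255108373, plus strand): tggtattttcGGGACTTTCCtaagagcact
Nfkbiz (chr11:58251698-58251727, plus strand): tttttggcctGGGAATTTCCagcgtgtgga
Traf3 (chr6:136027029-136027058, plus strand): ggcggcccgcGGGGATTTCCagcgcgcgag
Ccl20 (chr9:91837060-91837089, plus strand): aatcaatgggGGAAAACCCCgggtgagaac
Il1rn (chr3:27520183-27520212, plus strand): ggaaatatgaGGGTTTTTCCgcttttcaca
Il6 (chr4:5894624-5894653, minus strand): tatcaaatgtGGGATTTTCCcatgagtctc
Cxcl1, far match (chr14:17479404-17479433, minus strand): ccggttgtggGGAAACACCCtgtgctccgg
Cxcl1, near match (chr14:17479386-17479415, minus strand): cctgtgctccGGGAATTTCCctggcctgga
Cxcl2, far match (chr14:17467310-17467339, minus strand): cctaagctcaGGGGATTTCCctgatccctg
Cxcl2, near match (chr14:17467290-17467319, minus strand): ctgatccctgGGGCTTTTCCagttgtcatg

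Genes with a match went both ways. Of the 11, 6 had a log2 fold change above 0 and 5 below, from -0.40 for Tnfaip3 to 0.39 for Nfkbia, with a median of 0.07. Of the 18 genes whose window held no match, 12 were above 0, with a median of 0.09. Il1rn, Il6, Cxcl1 and Cxcl2 among the 11 were too dim to test. Among tested genes, 5 of the 7 with a match and 12 of the 15 without were above 0. The medians were 0.11 for the 7 with a match and 0.12 for the 15 without. Irak1 was among those without a match in this window.

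Of the receptors and their adaptor, 3 genes were measured and none differed beyond the spread of the arrays. Tlr2 encodes a receptor for bacterial lipoproteins and was dim. Its signals were 36.6, 33.8, 68.1 and 47.6 on the quercetin arrays, against 28.5, 13.1, 52.0 and 55.8 on the control arrays. The groups overlapped, with control array 2 the lowest. Tlr2 had a log2 fold change of 0.29 (SE 0.34, limma adjusted p = 0.81), 0.02 without control array 2, and -0.19 without control arrays 1 and 2.

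Tlr4, the receptor for lipopolysaccharide, averaged 583 ± 145 in the quercetin group and 607 ± 102 in the control group (SD, n = 4 each), a log2 fold change of -0.08 (95% interval -0.51 to 0.35). Its sign turned in 2 of 20 alternatives. Myd88, the adaptor that links Toll-like and interleukin-1 receptors to their kinases, averaged 798 ± 112 in the quercetin group and 746 ± 86.4 in the control group (SD, n = 4 each), a log2 fold change of 0.09 (95% interval -0.22 to 0.41).

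The kinases and ubiquitin ligases held the gene with the smallest p of the list. Irak1 encodes a kinase that MyD88 recruits to activated Toll-like and interleukin-1 receptors. Its signals were 529, 520, 481 and 493 on the quercetin arrays, against 295, 407, 408 and 373 on the control arrays. All 4 quercetin arrays were above all 4 control arrays, with control array 1 the lowest. The means were 506 ± 22.6 in the quercetin group and 371 ± 53.0 in the control group (SD, n = 4 each). The log2 fold change was 0.44 (SE 0.15, 95% interval 0.13 to 0.76), and the limma adjusted p was 0.33. On the signal + 16 scale that is 1.36 times the control level. With 1 array left out at a time the log2 fold change was 0.34 to 0.49, and the adjusted p over all 20 alternatives ran from 0.16 to 0.77. Another, dim Irak1 probe set averaged 18.9 in the quercetin group and 15.9 in the control group, with a log2 fold change of 0.00. The mean of both probe sets gave 0.22.

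The IkB kinase subunits were close to their control levels. Ikbkb, the catalytic subunit of the main pathway, averaged 380 ± 57.8 in the quercetin group and 334 ± 33.1 in the control group (SD, n = 4 each), a log2 fold change of 0.17 (95% interval -0.17 to 0.51). Chuk, the catalytic subunit of the alternative pathway, averaged 1065 ± 155 in the quercetin group and 944 ± 245 in the control group (SD, n = 4 each). Its log2 fold change was 0.20 (95% interval -0.21 to 0.61), or 0.02 without control array 2. Ripk2, the kinase that carries signals of the NOD receptors, averaged 128 ± 22.0 in the quercetin group and 96.8 ± 35.2 in the control group (SD, n = 4 each). Its log2 fold change was 0.39 (95% interval -0.13 to 0.91), and 0.20 without control array 2.

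Traf2 and Traf3 are ring-finger proteins that join TNF-family receptors to these kinases. Traf2 averaged 143 ± 22.1 in the quercetin group and 128 ± 24.0 in the control group (SD, n = 4 each), a log2 fold change of 0.14. Traf3, a brake on the alternative pathway, averaged 126 ± 19.97 in the quercetin group and 154 ± 34.0 in the control group (SD, n = 4 each), a log2 fold change of -0.25 (95% interval -0.67 to 0.17), and control array 2 had its highest signal, 199.8. Of the inhibitor of apoptosis ligases that work with them, Birc2 had 0.31, or 0.02 without control array 2, whose signal of 108 lay far under the 225 to 309 of the other 7 arrays. Birc3, which is also an NF-kB target, averaged 743 ± 115 in the quercetin group and 797 ± 188 in the control group (SD, n = 4 each), a log2 fold change of -0.08 (95% interval -0.48 to 0.31).

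**Figure D3:**
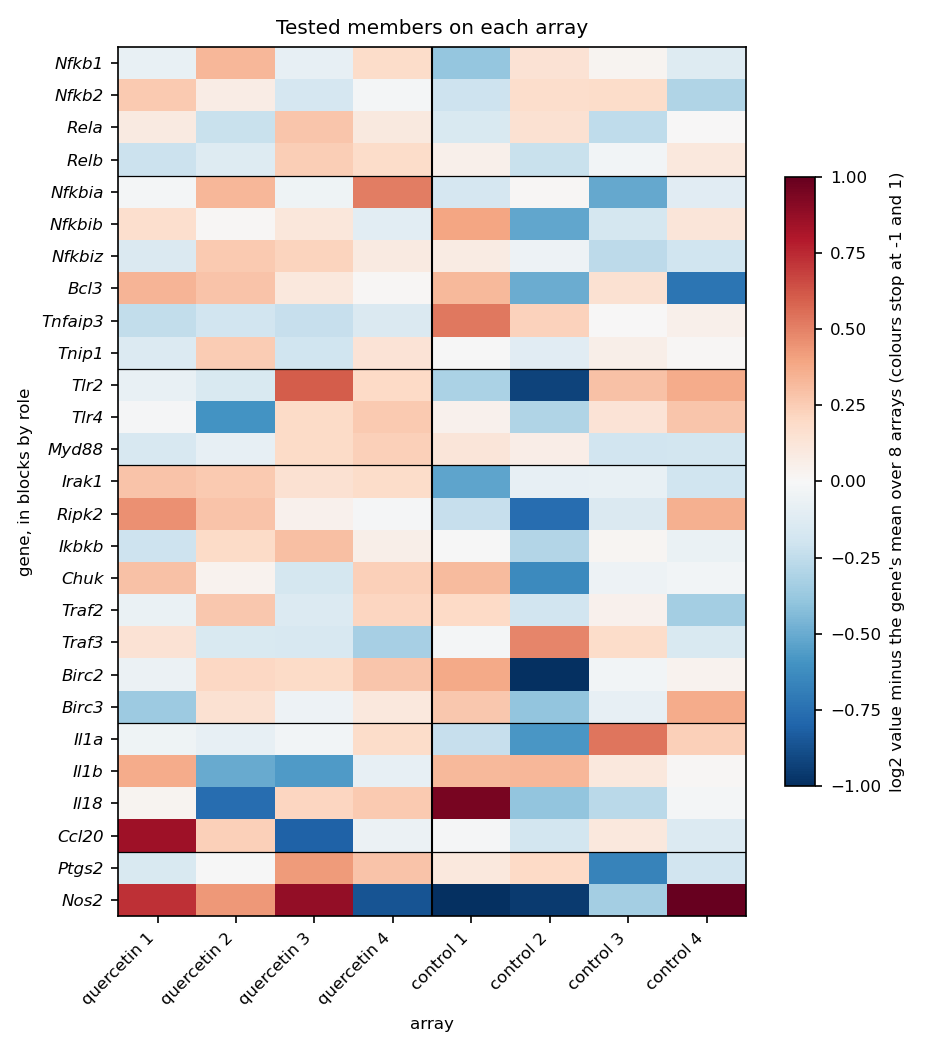
Log2 value of each of the 27 tested genes (rows, in blocks by role) on each array (columns, quercetin left of the line, control right), minus that gene's mean over the 8 arrays; red is above and blue below that mean, and colours stop at -1 and 1. Tnfaip3 is blue and Irak1 red on all 4 quercetin arrays, and control array 2 is the lowest array for 9 genes.

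The cytokines and chemokines split into 4 genes that could be tested and 6 that could not. Il1b encodes interleukin-1 beta, a fever-inducing cytokine made mainly by myeloid cells. Its signals were 54.3, 22.4, 20.6 and 35.4 on the quercetin arrays, against 52.0, 52.5, 42.4 and 38.9 on the control arrays. Quercetin arrays 2 to 4 lay below every control array, and quercetin array 1 lay above them all. The log2 fold change was -0.39 (SE 0.29, 95% interval -1.02 to 0.24, limma adjusted p = 0.67), and -0.58 without quercetin array 1. Summed macrophage and dendritic cell markers, 16 of 16 measured, ran from 694 to 966 on the quercetin arrays and from 591 to 739 on the control arrays, with 8 of the 16 higher and 8, among them Itgam and Cd68, too dim to test. Lyz2, the lysozyme of macrophages and itself part of that sum, had the smallest p of the 8 tested. Lyz2 signals were 162 to 299 on the quercetin arrays and 117 to 164 on the control arrays (log2 fold change 0.57, limma unadjusted p = 0.018, limma adjusted p = 0.36). Of the 8 tested markers, 6 were higher and 2 lower, Aif1 at -0.39 and Mrc1 at -0.003. The part of these markers in the Il1b value was not tested. In whole tissue, fewer cells of a type and less RNA per cell cannot be told apart.

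Il18, a cytokine that colon epithelium makes, was bright and scattered. Its signals were 1769, 1018, 2014 and 2078 on the quercetin arrays, against 3360, 1316, 1435 and 1708 on the control arrays. Control array 1 was the highest, and the log2 fold change of -0.13 (95% interval -0.74 to 0.48) became 0.16 without it. Ccl20, a chemokine that draws immature dendritic cells and certain lymphocytes to the epithelium, had 1017 on quercetin array 1, against 312 to 663 on the other quercetin arrays and 491 to 601 on the control arrays. It had a log2 fold change of 0.11 (95% interval -0.46 to 0.69), and -0.15 without quercetin array 1. Il1a, which encodes interleukin-1 alpha, had signals of 41.0, 39.3, 41.6 and 50.6 on the quercetin arrays, against 33.9, 23.1, 68.8 and 53.2 on the control arrays. The quercetin values lay inside the control range, with a log2 fold change of 0.02, and the sign turned in 7 of 20 alternatives.

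**Figure D4:**
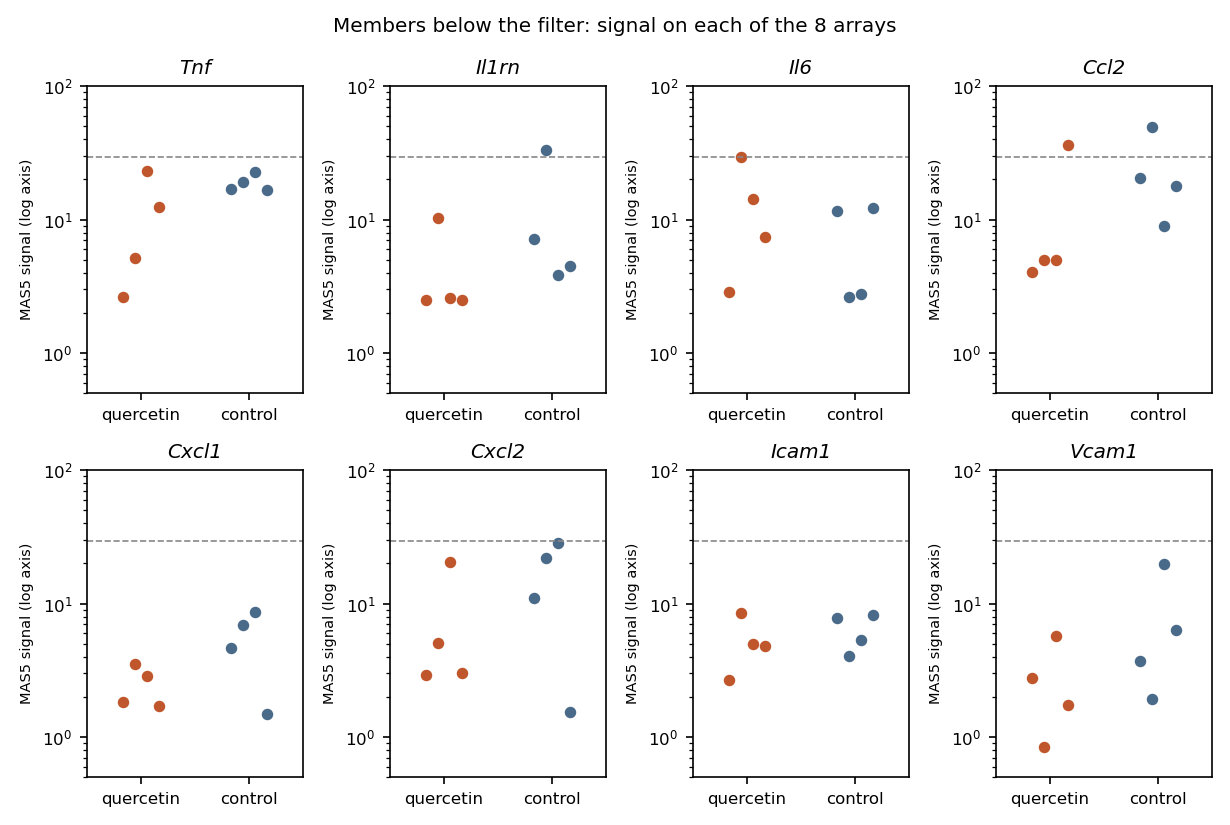
MAS5 signal (log axis) of the 8 genes below the filter on the quercetin arrays (left, orange) and the control arrays (right, blue), arrays 1 to 4 from left to right; the dashed line is the signal of 29.4 at the filter. Of the 64 values, 4 lie above the line, 2 in each group.

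Several genes widely used as readouts of NF-kB activity were too dim to test. These were the cytokines Tnf and Il6, the interleukin-1 receptor antagonist Il1rn, the monocyte chemokine Ccl2, the neutrophil chemokines Cxcl1 and Cxcl2, and the adhesion molecules Icam1 and Vcam1. Their mean log2 values lay under the filter, which stands at a signal of 29.4. Of their 64 values 4 were above that signal, Il6 on quercetin array 2 (29.5), Ccl2 on quercetin array 4 (36.4) and on control array 2 (49.1), and Il1rn on control array 2 (33.1). Tnf had 2.65, 5.12, 23.0 and 12.4 on the quercetin arrays, against 17.0, 19.0, 22.7 and 16.6 on the control arrays, so that quercetin arrays 1, 2 and 4 lay below the control group and quercetin array 3 just above it. Of the 8 genes, 7 had log2 fold changes below 0 and Il6 was above 0, from -0.53 for Ccl2 to 0.29. The main fit did not test these 8 genes, so no difference is claimed for them in either direction. With no filter on dim probe sets, their unadjusted limma p ran from 0.15 for Tnf to 0.69 for Icam1.

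Both measured enzymes were near the filter. Ptgs2, the inducible cyclooxygenase that makes prostaglandins, had signals of 33.4, 38.8, 57.7 and 50.8 on the quercetin arrays, against 42.8, 46.9, 18.5 and 32.0 on the control arrays. Quercetin arrays 3 and 4 were the highest and control array 3 the lowest, with a log2 fold change of 0.28 (95% interval -0.35 to 0.91). Nos2, the inducible nitric oxide synthase, had signals of 61.7, 47.4, 70.0 and 9.72 on the quercetin arrays, against 6.41, 8.10, 21.0 and 90.9 on the control arrays. Quercetin array 4 was as low as the low control arrays, and control array 4 was the highest of all. Nos2 had a log2 fold change of 0.59 (SE 0.52, 95% interval -0.53 to 1.71, limma adjusted p = 0.73), the least precise of the 27. The value hung on single arrays. It was 1.08 without control array 4 (unadjusted p = 0.037, limma adjusted p = 0.51), 0.97 without quercetin array 4, 0.37 without control array 2, 0.33 without control array 1, and -0.13 without control arrays 1 and 2 together. With array weights it was 0.02, and the adjusted p over the alternatives that tested it ran from 0.51 to 0.99.

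Further probe sets existed for 7 of the genes and were mostly dimmer than the filter. In 3 genes, Bcl3, Ikbkb and Nfkbiz, a further probe set had a value of the other sign than the brightest. For Bcl3 these were -0.06 and -0.21 against 0.37, for Ikbkb -0.21 against 0.17, and for Nfkbiz -0.06 against 0.22. The second probe set of Il1a, just under the filter, had 0.64 against 0.02, and that of Traf3 had -0.07 against -0.25. For Tnf, where both probe sets were too dim to test, the second had -0.008 against -0.43.

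Other genes of the same pathway were read from a list of 114, of which 95 were measured and 70 tested. None of the 70 passed (lowest limma adjusted p = 0.33), and 3 had an unadjusted p under 0.05, or 4.29%, beside 10.8% of all tested probe sets. The diets did not overlap for 5 of the 70 (7.14%), against 6.39% of all tested probe sets. The median log2 fold change of the 70 was 0.08, with 42 above 0.

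On the higher side, Il1r1, the signalling receptor of interleukin-1, had the smallest p. Its signals were 138, 168, 133 and 121 on the quercetin arrays, against 61.3, 99.7, 111 and 60.9 on the control arrays, without overlap. The log2 fold change was 0.68 (SE 0.22, limma adjusted p = 0.33), while dimmer, untested probe sets of the gene had -0.29 and 0.31. Cxcl10, a chemokine that interferon also induces, had 64.6, 139, 66.7 and 88.0 on the quercetin arrays, against 60.1, 11.5, 52.3 and 34.9 on the control arrays. Those groups also did not overlap (log2 fold change 0.97, SE 0.34, adjusted p = 0.35). Ltb, a lymphotoxin subunit, had a log2 fold change of 0.69 and Pycard, the adaptor of the inflammasome, 0.45, both with overlapping groups.

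On the lower side, Il15, a cytokine that maintains intraepithelial lymphocytes, had signals of 69.8, 118, 147 and 125 on the quercetin arrays, against 211, 156, 149 and 151 on the control arrays. The groups were separate by a narrow gap between quercetin array 3 and control array 3 (log2 fold change -0.50, SE 0.22, limma adjusted p = 0.44). Ccl28, a mucosal chemokine for antibody-secreting cells, had a log2 fold change of -0.40, Nlrc5, a regulator of MHC class I genes, -0.45, and Tollip, an inhibitor that binds IRAK1, -0.25. Tollip showed no overlap between the diets, with 301 ± 26.6 in the quercetin group and 360 ± 20.8 in the control group (SD, n = 4 each, adjusted p = 0.56). Its 2 other probe sets had -0.12 and 0.63.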

How the data were processed

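The authors deposited a linear intensity for each probe set on each array, which per the submitters' processing notes came from MAS5. The trimmed mean of the deposited intensity values was 200.1 on every array. The sources used here give no further steps. After 57 array controls were set aside, signals of 31042 probe sets were turned into log2(signal + 16), which understates changes of dim genes. The upper 60% by mean over 8 arrays (18625 probe sets) were tested with limma 3.58.1 in R 4.3.3 (trend, two-sided), quercetin against control, with Benjamini-Hochberg adjustment over all of them and a threshold of 0.05. Adjusted p-values come from this fit, except where an alternative analysis is named. Having 4 arrays a group limits precision.

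The genes, the further lists and the alternatives were chosen with earlier results of these data known. Array values are given for genes with an unadjusted p under 0.05 or no overlap, and otherwise for the smallest p of each role. Values of Il18, Il1a, Ptgs2, Tnf, Ccl20 and Bcl3 were added after they were seen. Some single-array values of Birc2, Traf3, Il6, Ccl2, Il1rn and Cxcl2 are also given outside that rule. Of the further pathway genes, the 4 with the smallest p in each direction are named. The fit was also tried on simulated data, and the outcome is not given here. Promoter sequences are RefSeq's (GRCr8).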

Additional observations from a re-analysis of the deposited data

Results flagged for a closer look

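In 3 of 70 groups of 4 arrays (35 genes in each diet), 1 array lay far from the other 3, measured as its gap to the nearest array over the group's range of log2 values. Chance gives about 3.5 such groups. All 3 were genes too dim to test, in the quercetin group. Il1rn had 10.2 on quercetin array 2, against 2.49 to 2.59 on the other quercetin arrays (gap share 0.984). Ccl2 had 36.4 on quercetin array 4, against 4.05 to 4.98 (0.953). Cxcl2 had 20.4 on quercetin array 3, against 2.94 to 5.04 (0.839).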

How the results depend on the processing

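In all 20 alternatives, 0 of the measured genes and 0 of the further pathway genes passed the adjusted threshold. The count over all probe sets, 2 as reported, was 3 with a pseudocount of 64, 1 with a pseudocount of 1, quantile normalisation, median centring, no filter on dim probe sets, eBayes without the trend or the replicate block, 0 with probe sets averaged per gene or without control arrays 1 and 2 together, and 1 to 2 with each array left out. The labels do not say whether the replicate number pairs the arrays. Deviations of same-numbered arrays had correlations of -0.02, 0.16, -0.15 and 0.14, which cannot settle it. The replicate block changed no call among the genes of the list. Genes without overlap, 2 as reported, were 1 with that averaging, 7 without control arrays 1 and 2, and 2 to 5 with each array left out, the 5 without quercetin array 1; fewer arrays make overlap rarer. Genes with an unadjusted p under 0.05, 3 as reported, were 2 to 4. Further pathway genes with an unadjusted p under 0.05, 3 as reported, were 5 after quantile normalisation, 2 in the upper 40% of probe sets and 1 to 9 with each array left out, with 1 without quercetin array 2, 6 without quercetin array 3, 5 without control array 2 and 9 without control array 3. The median over the 35 measured genes of the list, 0.09, was 0.14 after median centring and 0.03 with array weights. The median over the 95 measured further genes, 0.04, was 0.093 after median centring, 0.021 with a pseudocount of 64, 0.080 without control arrays 1 and 2, and 0.0021 to 0.089 with each array left out, the lowest without quercetin array 3 and the highest without quercetin array 1.

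Log2 fold changes turned sign in 30 of 700 recalculated values, spread over 13 genes. With each array left out, the ranges were -0.015 to 0.15 for Nfkb2, -0.028 to 0.13 for Relb, -0.065 to 0.24 for Nfkbib, -0.053 to 0.098 for Tnip1, -0.19 to 0.11 for Tlr4, -0.23 to 0.026 for Birc3, -0.17 to 0.20 for Il1a, -0.28 to 0.16 for Il18 and -0.15 to 0.40 for Ccl20. Without control arrays 1 and 2, the values were -0.014 for Relb, -0.021 for Tnip1, -0.19 for Tlr2, -0.38 for Il1a, 0.081 for Il18, -0.13 for Nos2 and 0.0029 for Il1rn, which was too dim to test. Il1a had -0.0041 with a pseudocount of 64, -0.15 with array weights and -0.028 with the GAPDH ratio as a covariate, and Ikbkb had -0.020 with the mean of its probe sets. The cause of these turns was not tested. For genes below the filter the size hung on the pseudocount; with a pseudocount of 1, Ccl2 had -1.23 and Tnf -1.10.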
